A study of Mus musculus with 3 samples.

Results

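Nucleus-poor barcodes with mitotic mRNAs were droplet barcodes of cochlear explants that held messenger RNAs of dividing cells and almost none of the RNAs that mark a nucleus and mitochondria. A barcode, the tag shared by all RNA molecules captured in the same droplet, was taken when 4 conditions held. It had at least 200 detected genes, under 1% of its unique molecular identifiers (UMIs, the counted RNA molecules) from mitochondrially encoded genes, and under 1000 CPM (counts per 1000000 UMIs) of the nuclear RNA Malat1. It also had at least 1 UMI of at least 2 of the 5 mitotic genes Cdk1, Ube2c, Birc5, Ccnb1 and Top2a. The rule was met by 93 of 2395 barcodes: 42 in Dox replicate 1, 49 in Dox replicate 2 and 2 in the control. Members were thus selected on measured values of mitochondrial RNA, Malat1 and mitotic mRNAs, so mitochondrial genes, Malat1 and the 5 mitotic genes are given as a description with no test.

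Malat1 is a long noncoding RNA that is kept in the nucleus, and mitochondrially encoded transcripts stay inside mitochondria, so an intact dissociated cell normally gives both. In late G2 and mitosis, cells accumulate the mRNAs of cyclin-dependent kinase 1 (Cdk1) and cyclin B1 (Ccnb1), which together drive mitotic entry, of Ube2c, the ubiquitin-conjugating enzyme of the anaphase-promoting complex, of Birc5 (survivin), a subunit of the chromosomal passenger complex, and of topoisomerase II alpha (Top2a), which untangles sister chromatids. The nuclear envelope breaks down in mitosis, and mature cochlear supporting cells normally do not divide.

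The study asked what happens in adult mouse cochlea when the transcription factor MYC and the Notch1 intracellular domain (NICD, the active form of the Notch receptor) are switched on together. All 3 libraries came from cochlear explants of rtTA/tet-on-Myc/tet-on-NICD mice 4 to 6 weeks old, in which doxycycline (Dox) turns on both transgenes, so the control cultures carried the same 3 alleles. The control library pooled 4 cultures given sterile water, and each of the 2 Dox libraries pooled 4 cultures given Dox at 2 µg/ml for 4 days. Sensory epithelium was dissected, dissociated with trypsin and captured by droplet-based 3' single-cell RNA sequencing. The sources used here do not give the promoter that drives rtTA or say whether cultures came from separate mice. No library of Dox on cultures without the transgenes was analysed, so Dox and the transgenes cannot be told apart.

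The sequences just upstream of the 5 genes that define the barcodes are shown because genes of G2 and mitosis commonly carry 2 short promoter elements, the cell cycle genes homology region (TTTGAA) and CCAAT boxes. The window searched is the 200 bases before the first start that RefSeq lists (mouse build GRCm38.p6), written 5' to 3' on the gene's strand. GENCODE begins a transcript inside this window for Cdk1 (last 26 bases), Ube2c (last 31) and Ccnb1 (last 84), and those bases are not printed. Capitals mark TTTGAA or its reverse complement TTCAAA, and CCAAT or its reverse complement ATTGG. Cdk1 is at chr10:69352939-69353112 (minus strand), Ube2c at chr2:164769729-164769897 (plus strand), Birc5 at chr11:117849037-117849236 (plus strand), Ccnb1 at chr13:100786571-100786686 (minus strand) and Top2a at chr11:99024190-99024389 (minus strand).
Cdk1: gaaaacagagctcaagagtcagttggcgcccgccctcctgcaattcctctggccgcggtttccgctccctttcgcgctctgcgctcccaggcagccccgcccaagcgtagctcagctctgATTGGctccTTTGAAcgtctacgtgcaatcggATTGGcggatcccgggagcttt
Ube2c: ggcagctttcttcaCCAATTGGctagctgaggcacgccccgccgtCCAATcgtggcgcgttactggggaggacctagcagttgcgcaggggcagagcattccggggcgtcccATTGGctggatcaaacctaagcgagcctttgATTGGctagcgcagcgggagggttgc
Birc5: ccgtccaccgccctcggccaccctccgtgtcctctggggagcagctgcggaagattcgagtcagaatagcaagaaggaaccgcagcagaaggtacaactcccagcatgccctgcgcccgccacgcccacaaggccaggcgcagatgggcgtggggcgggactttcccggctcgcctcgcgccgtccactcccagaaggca
Ccnb1: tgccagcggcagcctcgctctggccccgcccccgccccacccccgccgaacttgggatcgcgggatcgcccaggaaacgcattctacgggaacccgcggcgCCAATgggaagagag
Top2a: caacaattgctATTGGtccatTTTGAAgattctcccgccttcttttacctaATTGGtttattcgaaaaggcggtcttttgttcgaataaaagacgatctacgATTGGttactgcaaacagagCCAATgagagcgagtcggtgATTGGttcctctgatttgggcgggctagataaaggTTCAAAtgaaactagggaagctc
TTTGAA was present on either strand upstream of Cdk1, starting 71 and 15 bases before the RefSeq start, of Ube2c at 29 bases and of Top2a at 179 and 23 bases. CCAAT occurred 5 times upstream of Ube2c, where 2 copies overlap, 5 times upstream of Top2a, and 2 times each upstream of Cdk1 and Ccnb1. The Birc5 window held neither word. Over all 27025 genes of the RefSeq table, 12.7% of the 200-base windows held TTTGAA and 30.0% held CCAAT. Of the 74 genes in 5 lists of mitotic genes described below, 61 had a window, and 21 of these (34.4%) held TTTGAA and 42 (68.9%) held CCAAT. Among genes of S phase, 2 of 25 windows (8.00%) held TTTGAA and 14 (56.0%) held CCAAT. The matches at 15 bases in Cdk1, at 29 in Ube2c and at 67 in Ccnb1 lie in the unprinted bases, so by GENCODE they are inside the transcript. A match is a word in these letters and not a measured binding site.

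The control library held 5436731 UMIs in 512 barcodes, against 20309102 in 788 and 33385927 in 1095 for the Dox libraries. Barcodes with at least 200 genes numbered 378, 687 and 1028. The same barcode sequence was found in more than 1 library 125 times, and the second copy held a median of 0.645% and at most 1.68% of the UMIs of the fullest copy. Such repeats touched 3 members, and 1 of these, a control member, had over 10 times its UMIs in another library, here called a low copy. All 10 control barcodes in the comparison group described next were repeats, 7 of them low copies.

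Members were set against Epcam-positive barcodes that met the same mitotic gene rule and had 1 to 20% mitochondrial UMIs, called intact here. There were 463 of these, 117 in Dox replicate 1, 336 in Dox replicate 2 and 10 in the control. A further comparison group held 192 nucleus-poor barcodes with at most 1 of the 5 mitotic genes (96, 71 and 25). Malat1 had no UMI at all in 59 of the 93 members, and mitochondrial RNA had none in 12. The median mitochondrial share was 0.190% in Dox replicate 1 members and 0.155% in Dox replicate 2 members, against 4.19% and 4.22% in intact mitotic barcodes. The highest values inside the limits were 0.946% mitochondrial UMIs and 999 CPM of Malat1, and the nearest mitotic barcodes outside had 1.02% and 1531 CPM. A further 13 mitotic barcodes failed on Malat1 alone and 20 on mitochondrial UMIs alone. On the gene rule, 28 members held exactly 2 of the 5 genes, 19 held 3, 21 held 4 and 25 held all 5, and 42 nucleus-poor barcodes with exactly 1 were left outside.

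**Figure D1:**
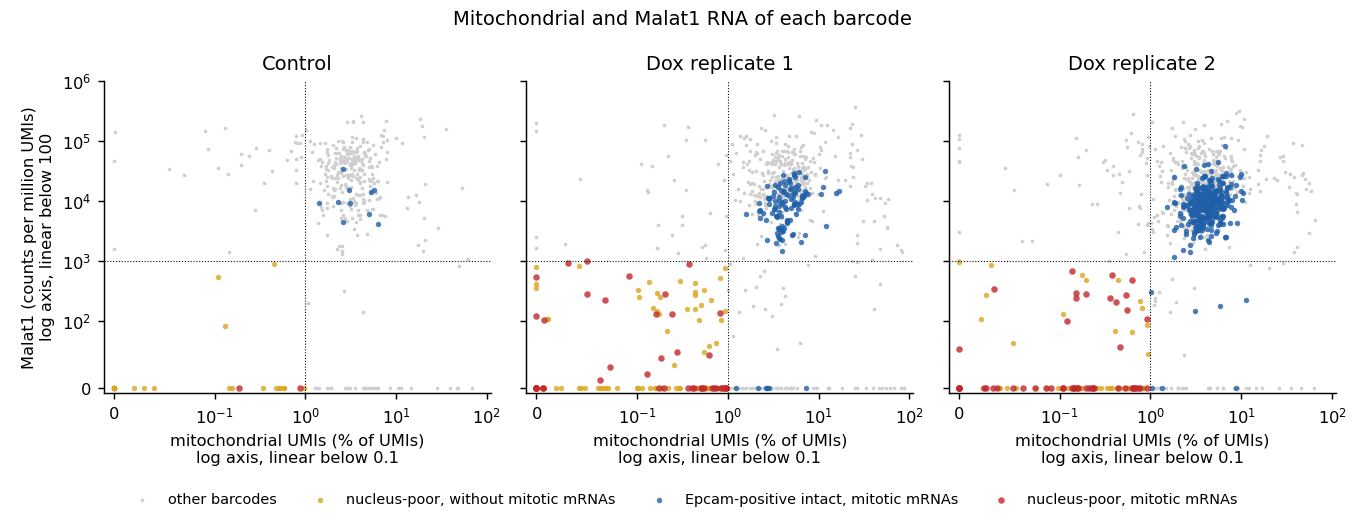
Each point is a barcode with at least 200 genes in the control library or in a Dox library; the x axis is the mitochondrial share of its UMIs (percent) and the y axis is Malat1 in CPM, both log axes that turn linear near 0, and dotted lines mark 1% and 1000 CPM. Red points (2, 42 and 49 members) and yellow points (25, 96 and 71 nucleus-poor barcodes without mitotic mRNAs) lie in the lower left corner, while the blue intact mitotic barcodes lie right of 1% and mostly above 1000 CPM.

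Members made up 0.529% of control barcodes with at least 200 genes (2 of 378, 95% exact Clopper-Pearson interval 0.0641 to 1.90%), 6.11% in Dox replicate 1 (42 of 687, 4.44 to 8.17%) and 4.77% in Dox replicate 2 (49 of 1028, 3.55 to 6.25%). Both Dox libraries lay above the control interval, and their own intervals overlapped. With 1 control library there is no test, and the intervals cover counting error only. Among nucleus-poor barcodes alone, the mitotic share was 7.41% (2 of 27), 30.4% (42 of 138) and 40.8% (49 of 120). In Epcam-positive intact barcodes it was 11.1% (10 of 90), 54.4% (117 of 215) and 61.8% (336 of 544), and 6.25% (3 of 48) in the control library without low copies. Finding 2 genes is easier in a deep barcode. The mitotic gene part of the rule was therefore also read after thinning to 1000 UMIs, with barcodes of fewer UMIs left out. The other limits still used all UMIs. The rule was then met by 20 of 596 (3.36%) and 22 of 908 (2.42%) barcodes of the Dox libraries. In the control 0 of 282 met it, which allows up to 1.06% by a limit of 3 counts and 1.30% by the exact interval. At that equal depth 16.0% (20 of 125, 10.1 to 23.6%) and 20.6% (22 of 107, 13.4 to 29.5%) of nucleus-poor Dox barcodes were mitotic, against 7.46% (15 of 201) and 13.3% (68 of 510) of intact ones. The exact 95% intervals of the classes overlap in both libraries.

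The 2 control members carry little weight. The smaller had 545 UMIs and 401 genes, with 4 UMIs of Ube2c and 1 of Birc5, and its barcode sequence was also that of a member with 83431 UMIs in Dox replicate 1. The other had 4573 UMIs with 1 UMI each of Ube2c, Birc5 and Ccnb1, held 11 of 12 macrophage markers (complement C1q, Lyz2 and others) and 0 of 14 epithelial markers. A fit of Dox against control members was not made, because the control sum held fewer than 5 barcodes.

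Members were shallower than intact mitotic barcodes. Their UMIs ran from 1805 through a median of 8668.5 to 93469 in Dox replicate 1, and from 689 through 7322 to 26445 in Dox replicate 2. Intact mitotic barcodes had medians of 65540 and 50467.5, and nucleus-poor barcodes without mitotic mRNAs had 4030.5 and 3866. The ranges overlapped, and 2 members, both in Dox replicate 1, held over 50000 UMIs. The 3 fullest members held 35.1% of the members' UMIs in Dox replicate 1 and 16.5% in Dox replicate 2. The median member had 2577 and 1835 detected genes. At 1000 UMIs per barcode the median was 581 and 582 genes, between 542 and 541 for nucleus-poor barcodes without mitotic mRNAs and 632 and 626 for intact mitotic ones.

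**Figure D2:**
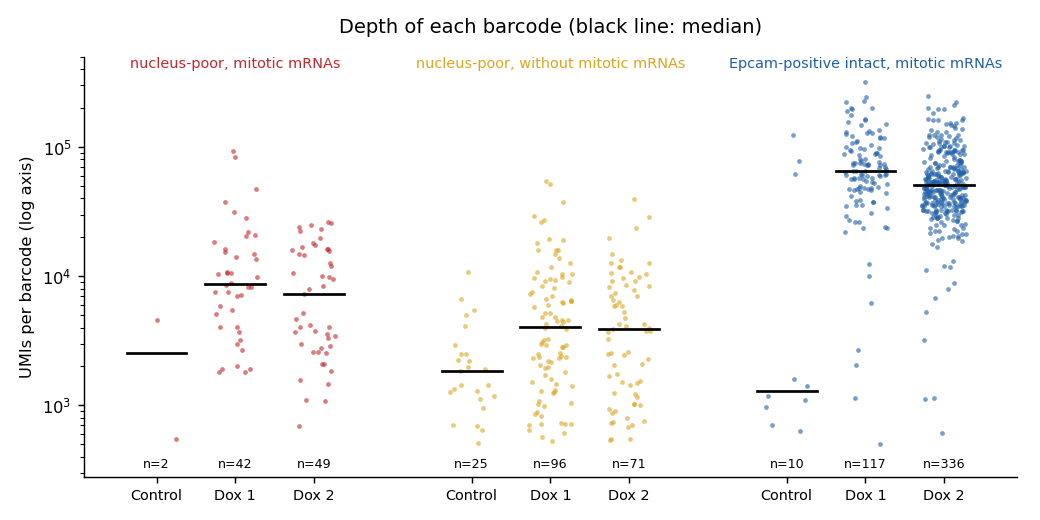
UMIs per barcode (log axis) for members, for nucleus-poor barcodes without mitotic mRNAs and for intact mitotic barcodes in each library; each point is a barcode, black lines are medians and n is the number of barcodes. Member medians of 8668.5 and 7322 in the Dox libraries sit between those of the other groups.

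Epithelial markers were detected in most members. At least 3 of 14 epithelial markers (keratins, claudins, E-cadherin, Epcam and others) were found in 77 of 93 members, 35 of 42 and 42 of 49 in the Dox libraries. Nucleus-poor barcodes without mitotic mRNAs passed the same count in 66 of 96 and 54 of 71, at lower depth. The part of free RNA in these detections was not tested. Epcam itself, an adhesion molecule of epithelia, had a UMI in 67 members, and 12 of the 26 without it still had at least 3 epithelial markers. At least 3 markers of a non-epithelial type were found in 16 members, of which 12 also passed the epithelial list, and 12 members passed neither. By list, at least 3 of 14 supporting cell markers were present in 7 members in each Dox library, 3 of 8 sulcus or interdental markers in 8 and 4, and 3 of 10 Schwann or satellite glia markers in 5 and 7. Hair cell markers were nearly absent: 9 of 10 were at 0 in Dox replicate 1 members and 8 of 10 in Dox replicate 2 members, no member held 3, and their summed level was 17.2 and 19.2 CPM. In Dox replicate 2 members all 12 macrophage markers were at 0. Macrophage markers reached 3 in a single Dox replicate 1 member, where the list summed to 73.6 CPM over all members. The labelled tissue, sensory epithelium, was thus met by epithelial markers, while its hair cell markers were at or near 0.

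All 5 defining genes were represented: Birc5 in 75 members, Ube2c in 73, Top2a in 72, Cdk1 in 63 and Ccnb1 in 39. In unscaled CPM, Ube2c stood at 532 and 517 in the members of the Dox libraries and at 207 and 218 in intact mitotic barcodes. Cdk1 stood at 244 and 291 against 84.7 and 94.9. Birc5 read 340 and 261 against 149 and 160, and Top2a 457 and 436 against 309 and 343. Ccnb1 was nearest to even, at 75.2 and 98.3 against 61.1 and 59.5 CPM, with Poisson counting intervals of 55.4 to 99.6 and 56.2 to 66.3 in Dox replicate 1 that overlap. These levels chose the barcodes, and depth differs between the groups, so they are given with no test.

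Mitotic mRNAs outside the rule were present in every member. The 69 other genes of the 5 mitosis lists summed to between 1915 and 26494 CPM per member in Dox replicate 1, with a median of 13016, and to between 2695 and 24708 in Dox replicate 2, with a median of 14109. No member was at 0. Intact mitotic barcodes had medians of 7935 and 7963, and nucleus-poor barcodes without mitotic mRNAs 2015 and 2005, with ranges that overlap those of the members. Intact barcodes passed the gene rule at greater depth, so these levels are a description with no test.

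Differences in gene expression between members and intact mitotic barcodes were fitted on UMI counts summed per library and group in the 2 Dox libraries, with library as a block. Levels in this comparison are CPM scaled by the trimmed mean of M-values (TMM), fold changes are log2 ratios of members over intact barcodes, and adjusted p-values are from the quasi-likelihood test of edgeR, with adjustment by Benjamini and Hochberg over all genes tested. Of 11476 genes, 1260 were higher in members (11.0%) and 1312 lower (11.4%), together 22.4%, with a median log2 difference over all genes of -0.11. The 4 sums leave 1 residual degree of freedom and come from pooled cultures. The test shares its estimate of spread across all genes. Its p-values therefore rest in part on that shared estimate and do not measure a gene's own spread between these 2 libraries. Each standard error (SE) printed here is the size of the log2 difference divided by the square root of that test's F statistic. It has the same limit and is not a spread between the 2 libraries. A small p-value can thus go with changes that differ between the 2 libraries. Scaling by total count in place of TMM moved the median difference to -0.30 and the calls to 634 higher and 1605 lower. The share of calls that were higher went from 49.0% to 28.3%. Because members pass the gene rule at lower depth, the comparison was also made with the rule read at an equal 3000 UMIs in every barcode (25 and 26 members against 48 and 152 intact barcodes), where 740 of 10151 genes rose (7.29%) and 815 fell (8.03%), together 15.3%, and at 1000 UMIs (20 and 22 against 15 and 68), where 153 of 7220 rose (2.12%) and 226 fell (3.13%), together 5.25%. Of the genes called at full depth, 2548 of 2549 kept their direction at 3000 UMIs and 2297 of 2318 at 1000 UMIs. The barcodes of these fits are part of those in the main fit and enter with all their UMIs. Much of this agreement is therefore built in. With every barcode of at least 1000 UMIs thinned to that depth after the rule, 55 of 1309 genes rose (4.2%) and 110 fell (8.4%). Together that is 12.6%, at a median of 0.03. There 710 of the 880 called genes still present kept their direction, and 2 were called the other way.

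The direction of change went with transcript length. Genes that rose had a median longest annotated transcript of 1794 bases, genes that fell 5376.5 bases, and all genes tested 3414 bases. Of 549 genes with transcripts under 1000 bases, 45.2% rose and 1.82% fell, with a median log2 difference of 0.52. Of 678 genes with transcripts of 8000 bases or more, 0.737% rose and 41.0% fell, with a median of -0.90. The bins between stepped from 0.40 through -0.02 to -0.45. With the gene rule read at 3000 UMIs the outermost medians were 0.56 and -0.89, and with all barcodes thinned to 1000 UMIs they were 0.17 and -1.18. Length moves with the change over all genes, and its part in the gene group results that follow was not tested.

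**Figure D3:**
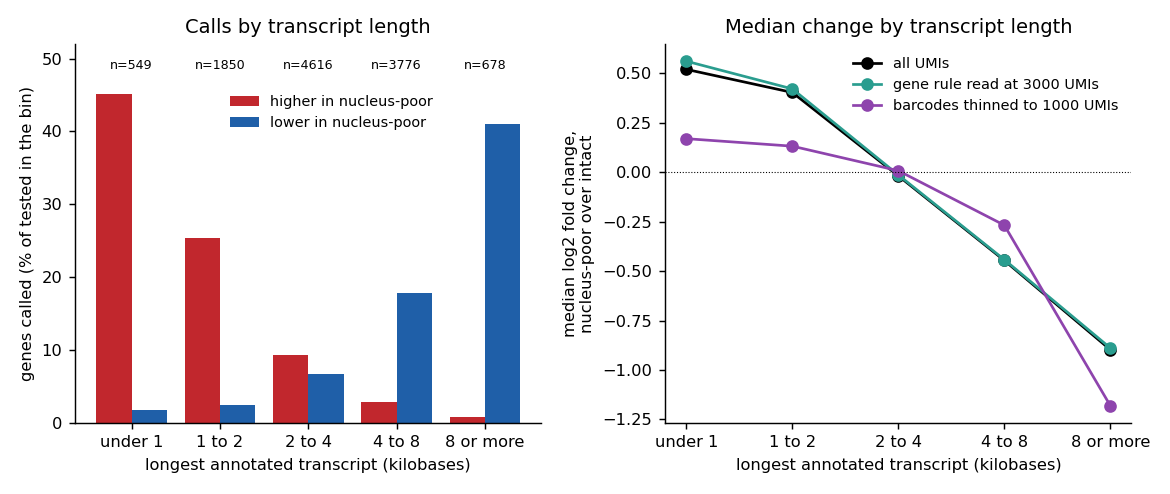
Left, percent of tested genes called higher (red) or lower (blue) in nucleus-poor than in intact mitotic barcodes, by length of the longest annotated transcript, with the number of genes above each bin; right, median log2 fold change per bin with all UMIs (black), with the gene rule read at 3000 UMIs (green) and with barcodes thinned to 1000 UMIs (purple). Higher calls fall from 45.2% to 0.737% with length while lower calls climb from 1.82% to 41.0%.

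At full depth, genes that drive entry into mitosis were more often higher than lower in members. Members had to pass the mitotic gene rule with fewer UMIs than intact barcodes, which favours members rich in mitotic mRNAs. Full-depth calls and p-values on the mitosis and S phase lists therefore partly reflect the selection, and its share was not tested. The rule read at 3000 or 1000 UMIs removes this difference in depth. Of 11 genes tested on the list of CDK1, cyclins and their regulators, 7 rose and 1 fell, with a median log2 difference of 1.03 against -0.11 for all genes. Cks2, a small subunit that docks CDK1 to its substrates, went from 164 to 361 CPM in Dox replicate 1 and from 159 to 396 in Dox replicate 2. Its log2 difference was 1.23 (SE 0.14, adjusted p = 5.2e-16). Cks1b, its paralog, rose by 1.10. The mitotic kinase gene Plk1 went from 41.9 to 79.7 and from 44.3 to 99.5 CPM, and Aurka, the spindle pole kinase, from 38.3 to 81.4 and from 42.3 to 99.5. In both libraries member levels lay above intact levels for each of these. Wee1, the kinase that holds CDK1 inactive, moved the other way, from 41.2 to 27.1 and from 44.3 to 18.1 CPM (log2 difference -0.89, SE 0.33, adjusted p = 0.032). Its call was lost in several alternatives, among them the fit with no library block (adjusted p = 0.059) and the rule at 3000 UMIs (adjusted p = 0.11). At 3000 UMIs 7 of 11 genes on this list rose and 0 fell, with a median of 0.90. At 1000 UMIs 1 of 10 rose and the median was 0.63.

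Components of the anaphase-promoting complex and spindle checkpoint rose in 6 of 10 cases and fell in none, with a median of 0.82. Cdc20, the activator that targets cyclin B for destruction, read 54.0 and 57.5 CPM in intact barcodes and 109 and 149 in members (log2 difference 1.19, SE 0.20, adjusted p = 1.1e-07). Ube2s, which extends ubiquitin chains on the same substrates, read 358 and 410 against 740 and 658. The checkpoint protein gene Bub3 went up by 1.16. At an equal 3000 UMIs the count stayed at 6 of 10 with a median of 0.73. At 1000 UMIs the edgeR test called 0 of 10 (4 had an unadjusted p of at most 0.05), at a median of 0.49, and Cdc20 stood at 0.98 (adjusted p = 0.056).

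Of 15 chromosomal passenger and kinetochore genes 10 rose and 2 fell, with a median of 0.82. Aurkb, the kinase of the passenger complex, went from 43.1 to 88.2 and from 49.2 to 122 CPM, and Cdca8 (borealin), another subunit, from 140 to 263 and from 155 to 317. Among outer kinetochore genes, Spc25 had a log2 difference of 1.32 (SE 0.22, adjusted p = 4.1e-08) and Ska1 1.36 (SE 0.30, adjusted p = 8.6e-05). The 2 that fell encode very large proteins. Cenpf dropped from 307 to 160 and from 301 to 228 CPM (log2 difference -0.67, adjusted p = 1e-04), with -0.94 in Dox replicate 1 alone and -0.41 in Dox replicate 2 alone. Cenpe, a kinetochore motor, went from 119 to 73.0 and from 115 to 92.7, with a log2 difference of -0.51 that was -0.33 in Dox replicate 2 alone. Its call (adjusted p = 0.046) was lost under several alternatives, among them leaving out shared barcodes (adjusted p = 0.31). With the rule at 3000 UMIs 7 of these 15 genes rose and 2 fell (median 0.70), and at 1000 UMIs 1 rose and 2 fell (median 0.53).

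Chromosome structure genes split in the same way. Hmgb2, a chromatin protein abundant in cycling cells, went from 729 to 1410 and from 686 to 1669 CPM (log2 difference 1.12, SE 0.11, adjusted p = 1.9e-23), and the histone variant gene H2afz from 1163 to 2140 and from 1278 to 2119. Mki67, the proliferation antigen that coats mitotic chromosomes, fell from 312 to 115 and from 305 to 195 CPM. Its log2 difference was -1.03 (SE 0.16, adjusted p = 1.9e-09), and -0.67 in Dox replicate 2 alone. In all, 5 of 9 rose and 1 fell, with a median of 0.61. At 3000 UMIs 2 rose and 1 fell, with a median of 0.57. Longest transcripts were 2628 bases for Hmgb2, 1069 for H2afz, 10061 for Mki67, 11130 for Cenpf and 7910 for Cenpe.

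Among 24 spindle and cytokinesis genes 12 rose and 2 fell, with a median of 0.63. The largest rise on the 5 lists was that of Nusap1 (chr2:119618298-119651244, plus strand), which binds microtubules at chromosomes, from 99.6 to 266 and from 94.3 to 289 CPM (log2 difference 1.52, SE 0.16, adjusted p = 1.3e-19). It kept its call at 3000 UMIs (1.22) and at 1000 UMIs (0.98, adjusted p = 0.014). Stmn1, a microtubule destabiliser, and the tubulin genes Tubb4b and Tuba1b rose by 0.88, 0.99 and 0.86, the tubulins belonging to a family of near-identical genes whose reads may be split among them. Hmmr, a spindle assembly factor, fell from 153 to 49.2 and from 146 to 81.4 CPM (log2 difference -1.23, adjusted p = 7e-08), and Anln, the anillin of the cleavage furrow, from 49.5 to 3.39 and from 54.8 to 22.6 (-2.14, adjusted p = 4.1e-07). Anln had 2 UMIs in Dox replicate 1 members, and its log2 difference was -1.28 in Dox replicate 2 alone. The longest transcripts are 3892 bases for Hmmr and 4605 for Anln, against 3526 for Nusap1. With the rule at 3000 UMIs 7 rose and 2 fell, at a median of 0.48, and at 1000 UMIs 1 rose and 2 fell, at 0.22. Mki67, Cenpf, Cenpe, Hmmr and Anln were each called lower at 1000 UMIs too.

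**Figure D4:**
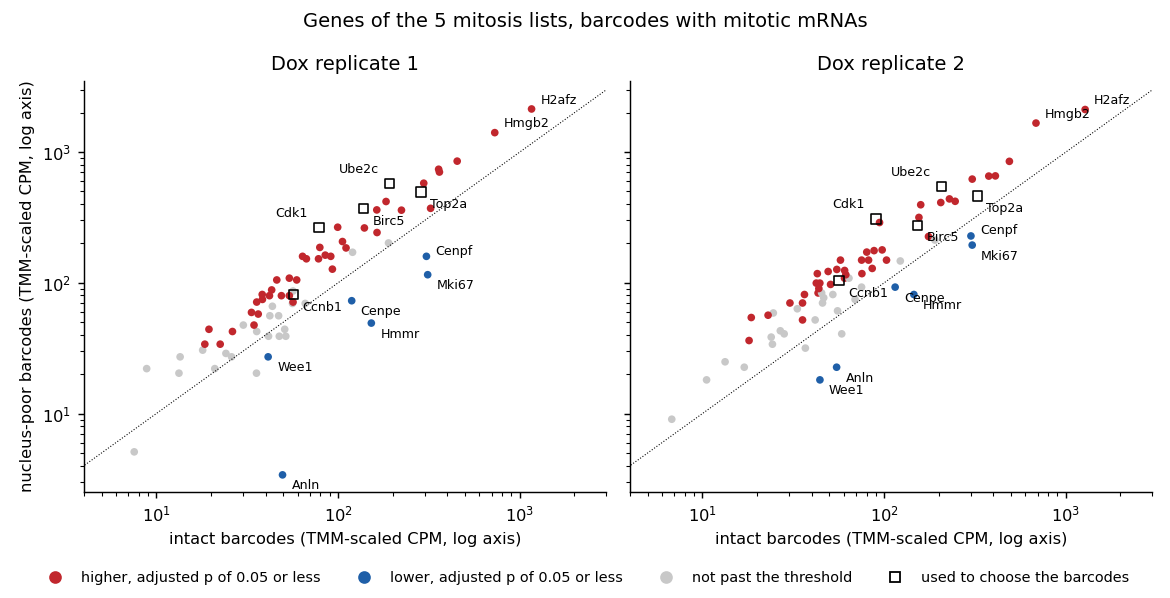
Level of each gene of the 5 mitosis lists in intact mitotic barcodes (x axis) and in members (y axis) of each Dox library, as TMM-scaled CPM on log axes; the dotted line marks equal levels, red points passed the threshold as higher, blue as lower, and open squares are the 5 genes that chose the barcodes. Most genes lie above the line in both libraries, with Mki67, Cenpf, Cenpe, Hmmr, Anln and Wee1 below it.

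S phase RNAs accompanied the mitotic ones. At least 3 of 31 S phase genes were detected in 86 of 93 members, and 1 member had none. Per barcode the list summed to a median of 2502 and 2753 CPM in members and 2154 and 2141 in intact mitotic barcodes, with overlapping ranges. Against intact barcodes 9 of 31 rose and 0 fell, with a median of 0.28 that was 0.10 in Dox replicate 1 alone and 0.44 in Dox replicate 2 alone. Gins2 of the replicative helicase rose by 1.08, the clamp loader subunit Rfc4 by 0.94, geminin (Gmnn), which blocks relicensing, by 0.83, and the dUTP pyrophosphatase gene Dut by 0.71. At 3000 UMIs 5 rose and 1 fell with a median of 0.09, and at 1000 UMIs the edgeR test called 0 of 30, with 7 at an unadjusted p of 0.05 or less.

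Nuclear noncoding RNAs other than Malat1 were also at low levels or missing from members. Neat1, the scaffold of nuclear paraspeckles, read 347 and 358 CPM in intact barcodes and 13.6 and 2.26 in members. Xist, which coats the inactive X chromosome, read 536 and 663 against 3.39 and 18.1. Kcnq1ot1, a long imprinted antisense RNA, had 1 UMI over all members against 12043, a ratio of 393 in favour of intact barcodes with a counting interval of 70.5 to 1.55e+04. These RNAs share their compartment with Malat1, which chose the barcodes, so the values describe the rule and support nothing. The sources used here do not say whether counting used strand, so Xist cannot be told apart from Tsix, nor Kcnq1ot1 from its host gene.

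The 12 largest falls by the naming rule all had 0 UMIs in the members, so only bounds can be given, against a floor of 3 UMIs over the group. Zfyve16, an endosomal protein gene, was at least 6.68-fold lower, Tsix at least 6.66-fold, Tnks1bp1 at least 6.18-fold and the noncoding Lncpint at least 5.39-fold. The other 8 (Clca3a1, Tnfrsf13c, Cry2, Syvn1, Slc35a2, Acp2, Mttp and Ccdc120) had bounds from at least 3.05-fold to at least 4.88-fold. Each was low in intact barcodes too, between 8.26 and 20.2 CPM.

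The 12 largest rises included cell cycle genes outside the lists. Kpna2, an importin that carries proteins into the nucleus, went from 26.8 to 100 and from 31.7 to 109 CPM (log2 difference 1.84, SE 0.24, adjusted p = 8.9e-13). Cdkn2d, an inhibitor of the G1 kinases CDK4 and CDK6, went from 20.6 to 52.6 and from 14.5 to 74.6. The histone genes Hist1h4d (99.3 to 333 and 141 to 430 CPM) and Hist1h2ab, with a log2 difference of 1.67, rose as well, and near-identical copies in their clusters cannot be told apart. Gng11, a G protein gamma subunit, went from 1.49 to 30.5 and from 3.67 to 24.9. Zfp524, Tubd1, Igfbp7 and Gucy1b1 had log2 differences from 1.65 to 2.20 and were higher in both libraries. Orm2, Uchl1 and Gstm6 rested mainly on Dox replicate 1. Orm2, an acute phase protein gene, went from 15.5 to 339 CPM there and from 19.9 to 20.3 in Dox replicate 2. Uchl1 went from 4.57 to 37.3 and from 3.02 to 4.52, and Gstm6 from 5.46 to 35.6 and from 5.43 to 9.04. In Dox replicate 2 alone their log2 differences were 0.02, 0.54 and 0.70.

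Ribosomal protein mRNAs were higher in members than in intact barcodes. All 26 tested rose, with log2 differences between 0.34 and 0.58 and a median of 0.44. Over all genes 11.0% rose. The median was 0.52 over all genes with longest transcripts under 1000 bases, and 0.40 from 1000 to 2000 bases. Rpl32 went from 5019 to 7438 and from 5179 to 7315 CPM (0.53, SE 0.08, adjusted p = 3.7e-09). Under total count scaling 23 of 26 rose with a median of 0.25. At 3000 UMIs all 26 rose, and with every barcode thinned to 1000 UMIs 3 of 26 did, at a median of 0.15 against 0.03 for all genes. Per barcode, ribosomal proteins took a median of 127080 and 129156 CPM in members, 105558 and 110232 in intact mitotic and 138239 and 138712 in other nucleus-poor barcodes. Translation factors rose in 7 of 15 and fell in 1 (median 0.33): Eif2s2, an initiation factor subunit, gained 0.79, and Eif3a, the largest subunit of eIF3, lost 0.79.

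Nuclear genes of oxidative phosphorylation did not follow the mitochondrially encoded ones. All 13 mitochondrially encoded genes were lower, by the rule. Of 25 nuclear genes for the respiratory chain 18 rose and 0 fell, with a median of 0.49. Over all genes 11.0% rose and 11.4% fell, and genes with transcripts under 1000 bases had a median of 0.52. Cox6c, a cytochrome oxidase subunit, went from 745 to 1169 and from 694 to 1090 CPM, and Cycs, cytochrome c, from 324 to 499 and from 336 to 563. With the rule at 3000 UMIs 9 rose, and after thinning to 1000 UMIs the edgeR test called 0 of 22 (2 had an unadjusted p of at most 0.05), at a median of 0.01. Glycolytic genes rose in 10 of 14 and fell in 1 (median 0.61), with Gapdh going from 2020 to 3941 and from 2047 to 3826 CPM. Per barcode, glycolytic genes summed to a median of 11779 and 12061 CPM in members and 8405 and 8980 in intact mitotic barcodes. Other nucleus-poor barcodes had medians of 11329 and 13547. Of 14 ferritin and antioxidant genes 11 rose, with a median of 0.55 (0.78 in Dox replicate 1 alone and 0.26 in Dox replicate 2 alone), among them thioredoxin (Txn1), from 641 to 1201 and from 706 to 1275. Cytosolic proteasome and chaperone genes rose in 14 of 18 (median 0.56): polyubiquitin Ubb went from 332 to 750 and from 407 to 830, and the proteasome subunit Psma7 rose by 0.90. After thinning, the edgeR test called 0 of 10 antioxidant and 0 of 16 proteasome and chaperone genes (2 of each had an unadjusted p of at most 0.05), at medians of 0.05 and 0.08. With 4.2% of all genes called higher after thinning, these low counts say nothing particular about the lists. In the actin and blebbing list 9 of 18 rose and 1 fell (median 0.37), profilin (Pfn1) by 0.73. Set against nucleus-poor barcodes without mitotic mRNAs, members had list medians of 0.06 for oxidative phosphorylation, -0.10 for glycolysis and 0.13 for proteasome and chaperones. The antioxidant list stood at -0.20 and the actin list at 0.09. As lists, these rises over intact barcodes were thus not particular to members.

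Genes of the secretory pathway fell more often than they rose. On the list of ER translocation, folding and secretion, 10 of 22 fell and 2 rose, with a median of -0.45. Of all genes tested, 11.4% fell and 11.0% rose. Hspa5 (BiP), the main chaperone of the ER lumen, went from 655 to 232 and from 596 to 247 CPM (log2 difference -1.39, SE 0.13, adjusted p = 1.2e-22), and Hsp90b1 from 936 to 543 and from 869 to 556. Sec61g, a short subunit of the translocon, was higher, at 640 and 547 against 404 and 391. At 3000 UMIs the counts were 10 and 1 with a median of -0.65. Per barcode the list summed to a median of 3318 and 3037 CPM in members, 5781 and 5440 in intact mitotic and 3115 and 3378 in other nucleus-poor barcodes.

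Immediate early genes, which dissociation also induces, fell in 13 of 21 cases and rose in none (median -0.62). Lower calls made up 11.4% of all genes tested, and higher calls 11.0%. Klf6 went from 347 to 57.7 and from 449 to 74.6 CPM (log2 difference -2.59, SE 0.18, adjusted p = 7.2e-46), and Egr1 from 1379 to 777 and from 1227 to 721. Splicing and nuclear RNA-binding genes fell in 9 of 18 and rose in 2 (median -0.32). Luc7l2, a U1 snRNP factor, went from 320 to 69.6 and from 295 to 113, and Clk1, the kinase of SR proteins, from 90.7 to 17.0 and from 77.0 to 2.26 (log2 difference -3.02, and -2.39 in Dox replicate 1 alone), the last from 1 UMI. Srsf3 went up instead, by 0.60. Chromatin regulators fell in 9 of 18 and rose in 1 (median -0.74), with Kmt2a, a histone methyltransferase with a transcript of 16470 bases, going from 114 to 28.8 and from 121 to 43.0. Directions and call sides of the genes named in this paragraph held with the rule at 3000 UMIs.

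**Figure D5:**
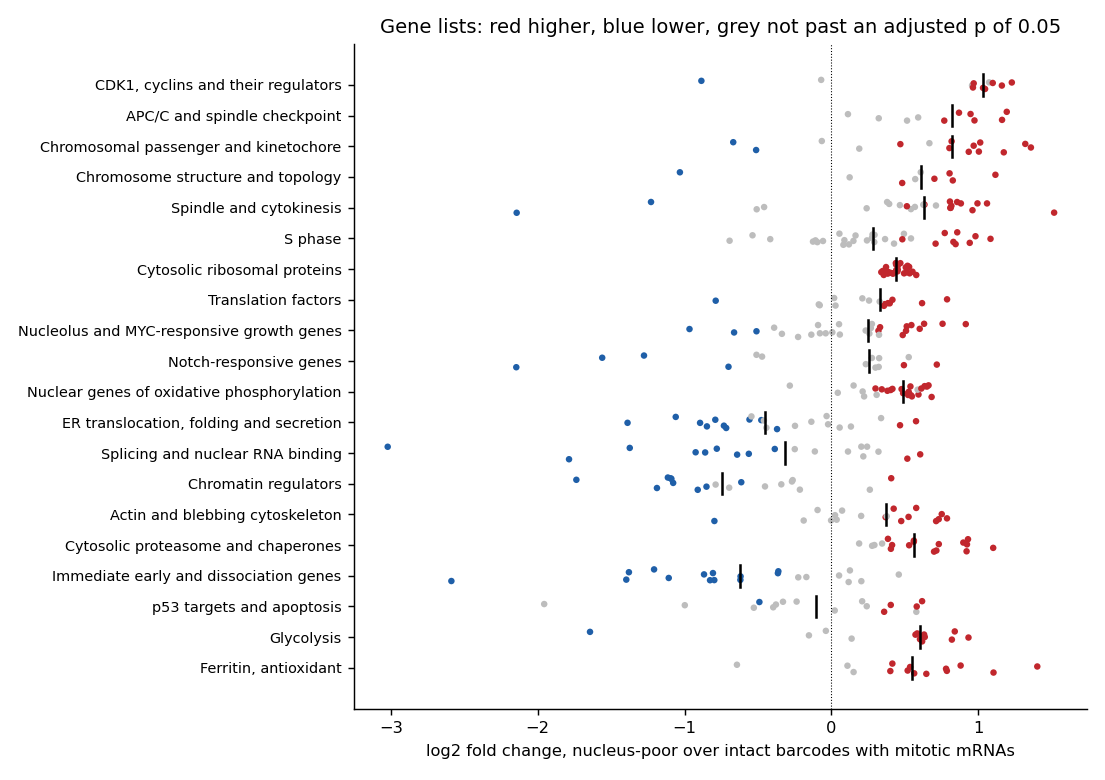
Log2 fold change of members over intact mitotic barcodes for each gene of 20 lists, with the 5 defining genes and genes at 0 in members left out; each point is a gene, red and blue passed an adjusted p of 0.05, and black bars are medians of the points shown. Mitotic, ribosomal, respiratory, proteasome, glycolytic and antioxidant lists lie right of 0, and ER, splicing, chromatin and immediate early lists lie left of it.

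The transgene-related genes gave a mixed picture. Myc read 49.6 and 43.0 CPM in intact barcodes and 54.3 and 74.6 in members, a log2 difference of 0.46 (SE 0.25) that missed the threshold (adjusted p = 0.18). The sources used here do not say whether the deposited counts include transgene transcripts. Of 28 nucleolar and MYC-responsive growth genes 10 rose and 3 fell (median 0.25). The shares over all genes tested were 11.0% higher and 11.4% lower. Ranbp1 and Ran, of the nuclear transport and spindle GTPase cycle, rose by 0.92 and 0.76, and the nucleolar GTPase gene Gnl3 fell by 0.97. Notch1, whose messages can include the NICD transgene, went from 409 to 244 and from 305 to 195 CPM (-0.70, SE 0.14, adjusted p = 1.9e-05). With the rule at 1000 UMIs that difference was -0.43 and no longer passed (adjusted p = 0.26). In unscaled CPM, Notch1 stood at 225 and 184 in members and 232 and 228 in nucleus-poor barcodes without mitotic mRNAs. Intact barcodes without mitotic mRNAs read 531 and 476, so the lower level was not particular to members. Among 15 Notch-responsive genes 2 rose and 5 fell, while the median was 0.23. The 2 rises are near the share over all genes. Nrip1, a nuclear corepressor, went from 140 to 66.2 and from 197 to 43.0. Notch3 went from 49.0 to 8.48 and from 45.7 to 13.6, and Id1, an inhibitor of differentiation factors, from 174 to 385 and from 167 to 190. The call for Id1 was lost with no library block (adjusted p = 0.081), and its log2 difference was 1.15 in Dox replicate 1 and 0.17 in Dox replicate 2.

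Identity markers shifted less evenly. For reference, 11.0% of all genes tested rose and 11.4% fell. Of 13 epithelial genes tested 4 fell and 1 rose (median -0.28), the tight junction gene Cldn4 from 167 to 35.6 and from 193 to 36.2 CPM, and E-cadherin (Cdh1) from 119 to 33.9 and from 125 to 33.9. The intact barcodes had to hold an Epcam UMI and members did not, and with Epcam-positive members alone 1131 genes rose and 1153 fell. Those totals are over all genes, so they do not say how the epithelial list moved. Of 10 supporting cell genes 2 rose and 3 fell, with a median of -0.84. S100a1, a calcium-binding protein of supporting cells, went from 838 to 2559 and from 389 to 948 CPM (1.45, SE 0.11), with an adjusted p of 0.058 once the library block was dropped. Over members, the supporting cell list summed to 2555 CPM in Dox replicate 1 and 973 in Dox replicate 2, against 1175 and 528 in intact mitotic barcodes. S100a1 gave 1508 of the list's 1632 UMIs and 419 of its 455 in members, so this sum follows S100a1 and not the list's median.

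Members were next set against nucleus-poor barcodes without mitotic mRNAs, fitted in the same way with 42 and 49 members against 96 and 71 barcodes. Of 5748 genes 396 were higher (6.89%) and 335 lower (5.83%), together 12.7%, with a median of -0.03. Under total count scaling 549 were higher and 212 lower with a median of 0.12, so the share of calls that were higher went from 54.2% to 72.1%. DESeq2's Wald test called 89 higher (1.55%) and 11 lower (0.191%), together 1.74%, and at under 0.5% mitochondrial UMIs the edgeR test called 101 higher and 34 lower. The mitotic genes chose these groups, so their levels are a description. Nusap1 read 1.59 and 0 CPM in barcodes without mitotic mRNAs and 244 and 270 in members, Ccna2 (cyclin A2) 1.59 and 7.67 against 149 and 165, and Plk1 0 and 5.11 against 73.1 and 92.8. Ckap2l, a spindle protein gene, and the cohesin protector gene Sgo1 read 1.59 CPM and 0 against at least 65.3 in members. The other genes of the 5 lists went with them: all 8, 10, 15, 9 and 23 tested, in the order of the lists above, were higher. Genes near 0 in barcodes without mitotic mRNAs could enter the fit through the members alone. These counts thus describe the selection and support nothing further.

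S phase genes outside the rule were higher in 23 of 27 cases and lower in none. The groups were split by mRNAs of dividing cells. Calls and p-values on other cell cycle genes therefore partly reflect that split, also with the rule read at equal depth, and its share was not tested. Pcna, the sliding clamp, read 42.8 and 30.7 CPM without mitotic mRNAs and 138 and 171 in members, and Rrm1, a ribonucleotide reductase subunit, 27.0 and 15.3 against 128 and 133. Dnmt1, which copies DNA methylation at replication, read 69.8 and 61.3 against 177 and 236 (log2 difference 1.61, SE 0.27, adjusted p = 9.3e-08), and Ezh2, the Polycomb methyltransferase, 42.8 and 28.1 against 123 and 137. Of 26 growth genes 9 rose and 0 fell (median 0.39), with Ranbp1 going from 228 to 619 and from 279 to 804 CPM. The chaperone Hsp90aa1 went from 707 to 1295 and from 785 to 1396. Depth differs between the groups as well. With the rule read at 3000 UMIs 254 of 5139 genes rose (4.94%) and 163 fell (3.17%), together 8.11%, among which 16 of 26 S phase and 3 of 25 growth genes rose. At 1000 UMIs 179 of 5281 rose (3.39%) and 126 fell (2.39%), together 5.78%, and 6 of 28 S phase genes rose.

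Ribosomal protein genes turned the other way in this comparison: 24 of 26 fell and 0 rose, with a median of -0.39. Here 5.83% of all genes fell, and 17.4% of those with longest transcripts under 1000 bases, whose median was -0.12. Genes that fell had a median longest transcript of 1938 bases, against 3133 for all genes tested. The part of length in the ribosomal result was not tested. Rplp1 went from 11174 to 8740 and from 11839 to 8074 CPM (-0.45, SE 0.07, adjusted p = 2.4e-10), and Rpl3 from 5469 to 3730 and from 5844 to 3978. Under total count scaling 18 of 26 fell with a median of -0.24, and DESeq2's Wald test called 0 of them (7 had an unadjusted p of at most 0.05), at a median of -0.40. All 6 supporting cell genes tested fell, with a median of -1.66. With the rule read at 3000 UMIs 2 of 4 fell. S100a1 read 3672 and 3757 CPM in nucleus-poor barcodes without mitotic mRNAs and 2346 and 884 in members, with a log2 difference of -1.34 that was -0.63 in Dox replicate 1 alone and -2.09 in Dox replicate 2 alone. The gap junction gene Gjb2 read 95.2 and 63.9 against 14.0 and 35.9 (-1.78, and -0.76 in Dox replicate 2 alone). Of 11 epithelial genes 3 fell and 0 rose, among them Krt19, at 587 and 475 against 252 and 352 (-0.84, and -0.43 in Dox replicate 2 alone). DESeq2's Wald test called none of S100a1, Gjb2 and Krt19 (adjusted p of 0.73, 0.42 and 0.34). Immediate early genes fell in 8 of 18 and rose in none (median -0.50), with Btg2, an antiproliferative gene, at 509 and 802 against 224 and 523. Under total count scaling 1 of 18 fell.

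The 6 largest falls in this comparison were mixed in kind. Wfdc18, a whey acidic protein domain gene of secretory epithelia, went from 531 to 40.5 and from 961 to 234 CPM (log2 difference -2.69, SE 0.18, adjusted p = 2.7e-44), a call that was lost at under 0.5% mitochondrial UMIs (adjusted p = 0.32). Hmox1, heme oxygenase 1, went from 103 to 9.34 and from 143 to 14.8, and Hes5, a Notch target of supporting cells, from 87.2 to 9.34 and from 20.4 to 4.22. Fbxo32 went from 52.3 to 14.0 and from 48.6 to 6.33. Isg15, an interferon-induced gene (240 to 18.7 and 2.56 to 0), and Lyz2, lysozyme of myeloid cells (119 to 21.8 and 28.1 to 0), were high mainly in Dox replicate 1. Macrophage markers as a list summed to 244 and 55.9 CPM in the barcodes without mitotic mRNAs and to 73.6 and 0 in members, and their part in these falls was not tested.

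A further fit asked whether nucleus-poor barcodes differ from intact ones in another way when mitotic mRNAs are present. It used 4 sums per library: members, intact mitotic barcodes, and both nucleus-poor and Epcam-positive intact barcodes without mitotic mRNAs, the last numbering 98 and 208. The difference of the 2 differences passed the threshold for 1 of 10566 genes (0.00946%), by the same edgeR test, and 658 were at an unadjusted p of 0.05 or less. The gene was Wfdc18, with 43.5 and 249 CPM in members, 154 and 294 in intact mitotic, 555 and 1009 in nucleus-poor and 122 and 318 in intact barcodes without mitotic mRNAs (log2 -2.72, SE 0.33, adjusted p = 0.0077). All 26 ribosomal protein genes were at an unadjusted p of 0.05 or less, with a median of -0.37 against -0.05 for all genes, and 0 of them passed adjustment. By transcript length the median difference of differences was -0.13 under 1000 bases and 0.02 at 8000 bases or more. The relation of change to length is therefore not shown to be particular to barcodes with mitotic mRNAs.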

How the data were processed

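Single-cell RNA of 3 libraries was measured with the 10x Genomics 3' kit. The deposited files hold UMI counts for 31053 genes in each barcode, which the authors made with Cell Ranger 5.0 and STAR on mm10/GRCm38 per the submitters' processing notes, which also name Seurat 3.2.2; the file headers give software version 3.1.0. The sources used here do not say whether introns or strand were counted.

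From the deposited counts, barcodes were classed by the stated rules, and counts were summed per library and class where both classes held at least 5 barcodes, which left out the control library. Sums were fitted with edgeR 4.0.16 (filterByExpr, TMM, glmQLFit, glmQLFTest, library as block, Benjamini-Hochberg over all genes tested, threshold 0.05) in R 4.3.3. The block stands for cells of the same pooled cultures. Class shares have 95% exact Clopper-Pearson intervals. Alternatives used DESeq2 1.42.0, limma 3.58.1 (loaded by edgeR), other scalings, filters and rule limits, and thinning to 1000 UMIs. The scripts were tested on simulated counts.

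Named genes were up to 12 largest rises and falls (6 in the other comparisons) with at least 50 UMIs and the same direction in both libraries, up to 4 genes per list by p, and any gene of the mitosis lists; clone names, pseudogenes and rule genes were left out. Members and lists were chosen with earlier results of these data known. The rule read at 1000 or 3000 UMIs, the fits without shared barcodes or members over 50000 UMIs, transcript length and the difference of differences were added after seeing the data. Positions and lengths are from GENCODE (GRCm38) by gene ID (11489 of 11496 matched). No doublet caller was run, and the part of doublets in members or comparison barcodes was not tested. Values were computed with Python 3.11.15, numpy 2.4.6, pandas 2.3.3 and scipy 1.17.1, and drawn with matplotlib 3.10.9.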

Additional observations from a re-analysis of the deposited data

How the results depend on the processing

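Depth limits these results: members held 638662 and 467813 UMIs in all, so genes near the floor could only be bounded. Against intact mitotic barcodes, 2572 genes called in the fit with library as block became 1741 with no replicate block, 1010 with DESeq2's Wald test, 165 when barcodes were thinned to 1000 UMIs, 379 with the gene rule read at 1000 UMIs and 1555 at 3000 UMIs. Thinning and equal-depth rules leave fewer UMIs or barcodes. Against nucleus-poor barcodes without mitotic mRNAs, 731 became 517 with no replicate block, 100 with DESeq2's Wald test (89 higher, 11 lower), 135 at under 0.5% mitochondrial UMIs (101 and 34), 65 after thinning, 305 at 1000 UMIs and 417 at 3000 UMIs. The cause of the lower DESeq2 and 0.5% counts was not tested. The members' share of barcodes after thinning was 3.36% in Dox replicate 1, 2.42% in Dox replicate 2 and 0% in the control. It was 4.08% and 3.50% with at least 3 of 5 genes, and 4.22% in Dox replicate 1 at under 0.5% mitochondrial UMIs. Leaving out a Dox library leaves no residual degree of freedom, so no count of calls was made. Genes printed here kept their direction in each alternative fit that tested them, and genes absent from a fit were not checked in it. Thinning left 1309 of 11476 genes tested against intact mitotic barcodes and 769 of 5748 against nucleus-poor ones. Over all genes called against intact mitotic barcodes, 710 of 880 present kept their direction after thinning, and 2 were called the other way. Scaling by DESeq2's size factors gave 2606 and 733 calls, leaving out shared barcodes 2356 and 636, leaving out members over 50000 UMIs 1900 and 636.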
